A study of Mus musculus with 36 samples.

Results

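Globin genes and genes of the red cell programme were followed through heart development in tissue that carries its own blood. The set was chosen by name from the array annotation, as every row whose symbol starts with Hba- or Hbb- together with Alas2, Hemgn, Slc4a1 and Klf1, and it was proposed with the stage pattern of the embryonic globins already known. It holds 10 genes and 17 probe sets, out of 20701 Entrez genes and 45101 probe sets on the array. The genes are Hbb-y, Hbb-bh1 and Hbb-b2 of the beta-globin family, Hba-x, Hba-a1 and Hba-a2 of the alpha-globin family, and the red cell genes Alas2, Hemgn, Slc4a1 and Klf1. A probe set is called expressed here when its mean in at least 1 stage exceeded a log2 intensity of 5, the limit used in the study, and 13 of the 17 probe sets, from 7 of the 10 genes, met it. The probe sets of Hba-a1, Hba-a2 and Klf1 and 1 of the 3 for Slc4a1 did not. Among the annotated rows, the name adult globins is therefore carried by the beta-globin gene Hbb-b2 alone. Another 6937 probe sets have no gene ID here, and whether any of them measures an adult globin was not tested.

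Hearts of OF1 mice, an outbred strain, were taken daily between E10.5 and E19.5, from young adults of 10 weeks and from old adults. The age of the old adults is 10 months in the study's methods and 14 months in its deposited description. Each of the 12 stages has 3 arrays, 36 in all. The 3 arrays were of mixed sex at E10.5 and E11.5, and from E12.5 on 1 was female, 1 male and 1 mixed. No animal was treated or carried a mutation, and the methods give the female and the male replicate as 1 animal each and state no number of hearts for the mixed ones. The deposited values are log2 intensities after normalization across arrays. The 6 heart muscle markers had a mean level of 11.0 to 12.3 on the arrays, whereas the stage means of the hepatocyte markers stayed at or below 5 except for Ahsg in young adult (5.03). Hybridization controls, RNA added before the array step, ranged from 9.68 to 12.43 across arrays. The array titles carry a different prefix on 16 of the 36 arrays, all from E16.5 or later. E16.5 is the 1 stage that holds both kinds, with the prefix on its female array only. The prefix reads heart_mRNA up to E19.5 and heart in the adults, and these forms were taken as 1 kind. What the prefix stands for is not stated, so that it cannot be told apart from late stage for most comparisons.

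Red blood cells of the mouse arise in waves. Primitive red cells from the yolk sac circulate first and make the embryonic globins, the beta-like chains Hbb-bh1 and Hbb-y and the alpha-like chain Hba-x. Definitive red cells from the fetal liver, and later from the bone marrow, follow and make adult globins. Maturing red cells of mammals lose their nucleus and then their RNA, so that globin messenger RNA in a tissue comes from young red cells. A heart sample is bulk tissue, and fewer red cells and less RNA in each red cell cannot be told apart in it.

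The beta-like globins lie in a cluster on chromosome 7 and the alpha-like globins in a cluster on chromosome 11. Promoter sequences of 300 bases, from 250 before to 50 after the start site, were taken from RefSeq (GRCm38.p6) for the 7 members that have one in the table used. They were Alas2, Hba-a1, Hba-a2, Hba-x, Hbb-y, Hemgn and Klf1. Hbb-bh1, Hbb-b2 and Slc4a1 had none there. Shown are the promoters of both embryonic globins among them, which fell on different days, and those of Hemgn and Alas2, of which the first fell below the limit early and the second had a mean above it in every stage. Capitals mark matches, on either strand, to AGATAA (the core bound by GATA factors), to CCNCNCCC (bound by factors of the Klf1 type) and to CCAAT. Hbb-y lies at chr7:103853158-103853457 on the minus strand, Hba-x at chr11:32276350-32276649 on the plus strand, Hemgn at chr4:46404134-46404433 on the minus strand and Alas2 at chrX:150547167-150547466 on the plus strand.
Hbb-y: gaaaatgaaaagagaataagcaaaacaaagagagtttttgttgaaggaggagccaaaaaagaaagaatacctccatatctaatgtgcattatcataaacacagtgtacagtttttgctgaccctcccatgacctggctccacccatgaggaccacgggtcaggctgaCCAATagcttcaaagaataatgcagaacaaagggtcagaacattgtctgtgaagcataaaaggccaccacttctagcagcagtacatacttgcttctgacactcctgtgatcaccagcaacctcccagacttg
Hba-x: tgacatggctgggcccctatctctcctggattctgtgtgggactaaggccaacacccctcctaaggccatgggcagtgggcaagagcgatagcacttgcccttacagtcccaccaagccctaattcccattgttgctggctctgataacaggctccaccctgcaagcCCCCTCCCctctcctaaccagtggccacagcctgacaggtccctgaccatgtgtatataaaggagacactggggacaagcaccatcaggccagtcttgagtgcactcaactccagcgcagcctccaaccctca
Hemgn: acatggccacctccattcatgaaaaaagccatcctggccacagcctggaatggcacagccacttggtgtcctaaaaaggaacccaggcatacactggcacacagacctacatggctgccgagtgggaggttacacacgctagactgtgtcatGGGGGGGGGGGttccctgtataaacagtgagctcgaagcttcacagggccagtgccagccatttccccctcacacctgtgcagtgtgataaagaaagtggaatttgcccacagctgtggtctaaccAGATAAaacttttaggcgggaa
Alas2: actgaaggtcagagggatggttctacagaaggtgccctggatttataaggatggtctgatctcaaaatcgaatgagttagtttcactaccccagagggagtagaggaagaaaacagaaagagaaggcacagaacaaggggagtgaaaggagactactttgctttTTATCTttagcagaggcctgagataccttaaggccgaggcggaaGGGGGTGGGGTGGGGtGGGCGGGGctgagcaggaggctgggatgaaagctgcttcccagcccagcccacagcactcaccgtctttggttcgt

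AGATAA was found in 2 of the 7 promoters, Alas2 and Hemgn, and in 11.2% of all 32851 promoters of the same length. CCNCNCCC was found in 3 of the 7, Alas2, Hba-x and Hemgn, and in 49.5% of all promoters. Its 4 matches in Hemgn overlap one another within a run of G, and some of its 4 in Alas2 overlap. CCAAT was found in 4 of the 7, Hba-a1, Hba-a2, Hbb-y and Klf1, and in 37.4% of all promoters. Hbb-y and Hba-x, the pair of embryonic globins with a sequence here, shared none of these matches. A match is a description of the letters only, and a promoter without AGATAA may hold another form of the GATA site.

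Hbb-bh1, the first beta-like chain of primitive red cells, fell from E10.5 on. Its leading probe set, meaning the one with the highest mean over all arrays (1437990_x_at), read 12.70, 13.23 and 13.04 on the E10.5 arrays, 12.53, 12.54 and 12.28 on those of E11.5, and 10.92, 10.94 and 11.16 on those of E12.5. It read 9.43 in the female, 9.43 in the male and 7.47 in the mixed array of E13.5. It then read 6.44, 6.61 and 5.97 at E14.5 and 4.32, 3.97 and 3.63 at E15.5. No array of a day overlapped those of the day before from E10.5 to E15.5, and every array from E15.5 on lay below the expression limit. Relative to its E10.5 mean the linear level had dropped to 68.6% by E11.5, to 25.3% by E12.5, to 5.39% by E13.5 and to 0.994% by E14.5. The steepest daily step, from E13.5 to E14.5, was a fall by 2.44 on the log2 scale (SE 0.30), or 5.42-fold. The other 2 probe sets of the gene fell over the same days. Their stage means crossed the limit of 5, by linear interpolation between days, at embryonic day 15.04 (1437810_a_at) and 14.02 (1450736_a_at), against day 15.07 for the leading one.

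Hba-x, the alpha-like chain of primitive red cells, fell along with it but more slowly. Its single probe set read 10.50, 11.39 and 11.15 on the E10.5 arrays, 10.61, 10.83 and 10.55 on those of E11.5, and 9.16, 9.78 and 9.56 on those of E12.5. It read 8.19 in the female, 8.70 in the male and 6.77 in the mixed array of E13.5. At E14.5 it read 6.50, 7.10 and 6.29, and at E15.5 5.42, 5.79 and 5.05. The E10.5 and E11.5 arrays overlapped, and so did those of E13.5 and E14.5, because of the low mixed array at E13.5. All 3 arrays were still above 5 at E15.5 and all 3 below it at E16.5, and the stage mean crossed the limit at day 15.84. Its steepest daily step was a fall by 1.61 (SE 0.31), or 3.06-fold, from E12.5 to E13.5. Of its E10.5 level, 35.1% remained at E12.5 and 4.78% at E14.5.

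Hbb-y, the other embryonic beta-like chain, stayed high until E13.5 and then dropped in steeper steps than either. Its leading probe set (1436717_x_at) read 13.39, 13.64 and 13.78 on the E10.5 arrays and 13.72, 13.80 and 13.70 on those of E11.5. It read 13.76, 13.83 and 13.84 on those of E12.5 and 13.77, 13.73 and 13.38 on those of E13.5. These 4 stages overlapped one another, with means of 13.60, 13.74, 13.81 and 13.63. The highest value of any probe set was 13.69 to 14.04 depending on the array, so that Hbb-y lay at the top of the measured range in these stages. It then read 12.79, 13.12 and 12.51 at E14.5 and 10.27, 10.99 and 10.22 at E15.5. At E16.5 it read 8.64 in the male, 6.62 in the mixed and 8.67 in the female array, and at E17.5 3.01 in the female, 3.11 in the male and 4.85 in the mixed array. No array of E14.5 to E17.5 overlapped those of the day before. The step from E16.5 to E17.5, which ended below the limit, was a fall by 4.32 (SE 0.37), the steepest daily step of any member. From E17.5 to old adult every array of this probe set lay below 5, down to 2.84, 2.48 and 2.57 in old adult.

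The probe sets of Hbb-y did not give the same day. The 2 brightest (1436717_x_at and 1436823_x_at) crossed the limit of 5 at day 17.19 and 17.21. The suffix x in their names says that some of their probes can match other transcripts. The leading probe set of Hbb-bh1 carries it as well. Signal from other beta-like globins in these probe sets was not tested. The third, 1450621_a_at, read lower up to E18.5 and fell earlier, with means of 12.66, 11.69, 9.58, 6.55 and 4.95 on the 5 days that begin with E12.5. It crossed the limit at day 16.47, and its steepest step was a fall by 3.02 (SE 0.40), or 8.14-fold, from E14.5 to E15.5. At E13.5 it stood at 59.2% of its E10.5 level where the leading probe set stood at 102%. All 3 probe sets placed the fall of Hbb-y after that of Hbb-bh1, on the midpoint between the highest and lowest embryonic stage means: day 15.05 to 16.30 for Hbb-y, day 13.12 to 13.78 for Hbb-bh1, and day 13.88 for Hba-x.

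**Figure D1:**
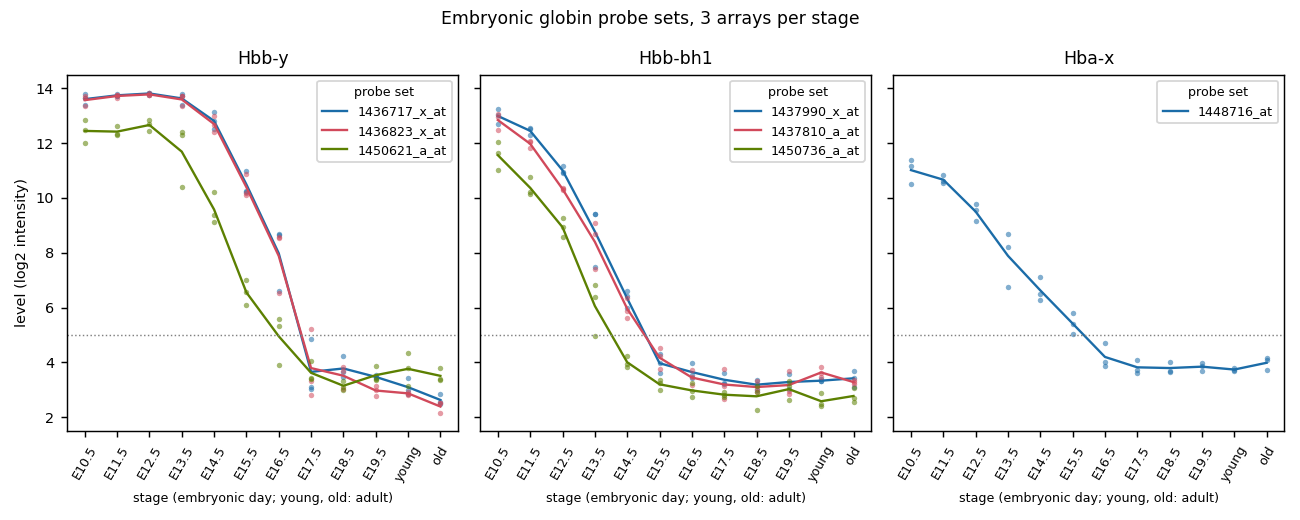
Level (log2 intensity) of each probe set of Hbb-bh1, Hba-x and Hbb-y by stage, with points for the 3 arrays and a line through the stage means; the dotted line is the expression limit of 5. Hbb-bh1 and Hba-x fall from E10.5 or E11.5 on, while the leading probe set of Hbb-y holds 13.60 to 13.81 until E13.5 and then falls to 3.66 at E17.5.

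The fall of Hbb-y was also set against the other 2 on each array. When each leading probe set was expressed as its change from its own E10.5 mean, the change of Hbb-y less that of Hbb-bh1 was 2.07 to 2.28 across the 3 arrays of E12.5. It was 3.69 to 5.30 at E13.5, 5.74 to 5.93 at E14.5, 5.33 to 6.41 at E15.5 and 2.58 to 4.50 at E16.5. By E17.5, when both genes were below the limit of 5, it was -0.83 to 0.61 and enclosed 0. The change of Hbb-y less that of Hba-x was 3.43 to 3.70 at E14.5 and 0.15 to 2.04 at E16.5. With the less bright 1450621_a_at for Hbb-y, the change less that of Hbb-bh1 was 3.48 to 4.17 at E14.5 and 2.78 to 3.60 at E15.5. The change less that of Hba-x was then 1.41 to 1.70 at E14.5 but -0.40 to -0.20 at E15.5, so that the order of Hbb-y and Hba-x at E15.5 turned with the probe set. The leading probe set of Hbb-y was near the top of the range until E13.5, and Hbb-bh1 was below the limit from E15.5 on and Hba-x from E16.5 on, which bounds these differences. They are descriptions, since the genes were chosen on their stage pattern. On the E13.5 mixed array, where Hbb-bh1 and Hba-x read lower than on the other arrays of that day, the leading probe set of Hbb-y read 13.38 against 13.77 and 13.73, and 1450621_a_at read 10.39 against 12.28 and 12.39.

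**Figure D2:**
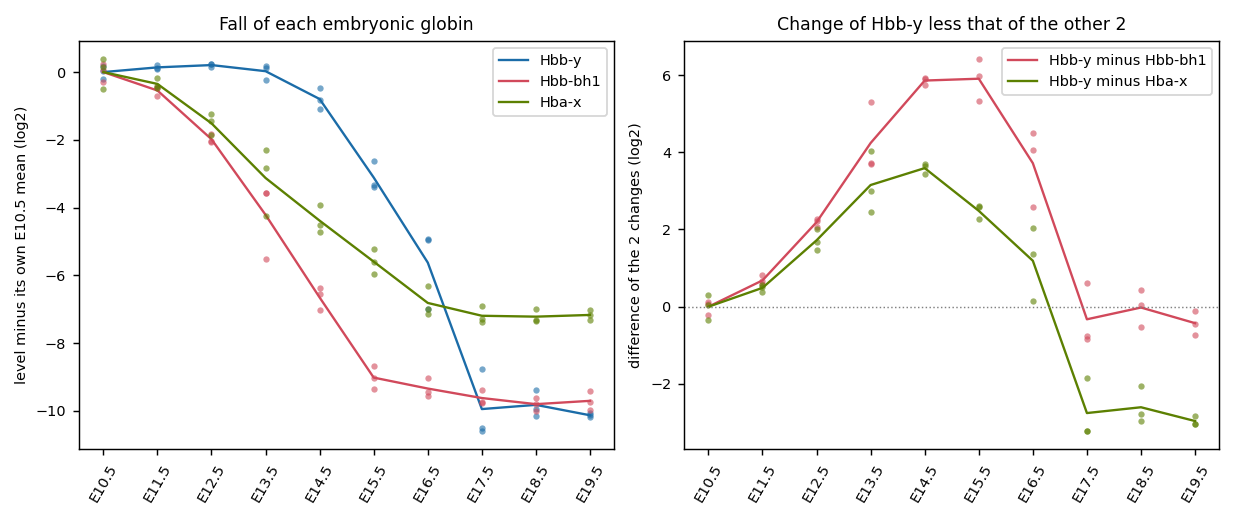
Left, change of the leading probe sets of Hbb-y, Hbb-bh1 and Hba-x from their own E10.5 means (log2), by embryonic day; right, on each array, the change of Hbb-y less that of Hbb-bh1 and less that of Hba-x. The difference to Hbb-bh1 is 5.74 to 5.93 on the E14.5 arrays, 5.33 to 6.41 on the E15.5 arrays and near 0 at E17.5.

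Hemgn, a nuclear protein of blood-forming cells and early red cell precursors, fell below the limit before any embryonic globin. Its probe set read 6.48, 7.47 and 7.41 on the E10.5 arrays, 6.29, 6.59 and 5.14 on those of E11.5, and 2.31, 2.26 and 2.08 on those of E12.5. All 6 arrays of E10.5 and E11.5 were above 5, and all later arrays were below it, with stage means from 2.04 to 2.38. The step from E11.5 to E12.5 was a fall by 3.79 (SE 0.27), to a level below the limit. Over the same step Hbb-y did not fall, with means of 13.74 and 13.81.

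Klf1, the transcription factor that drives many red cell genes, was below the expression limit in every stage. It read 4.09, 4.70 and 4.51 on the E10.5 arrays, 3.90, 3.76 and 3.83 on those of E11.5, and had a mean of 3.04 at E12.5. Its E10.5 arrays lay above all arrays from E11.5 to E19.5, but its young adult arrays, at 3.73, 3.14 and 4.27, overlapped those of both E10.5 and later days. Gata1, the factor that works beside it, had stage means from 2.49 to 2.82.

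Slc4a1, the anion exchanger band 3 of the red cell membrane, declined slowly. Its leading probe set (1416464_at) had means of 8.36, 8.32, 7.45, 6.99 and 6.54 on the first 5 days, E10.5 to E14.5. On the last 5 days, E15.5 to E19.5, the means were 6.63, 5.86, 5.37, 5.04 and 5.50. Neighbouring days overlapped from E12.5 on, with an SD of 0.94 at E14.5, 1.10 at E15.5 and 1.28 at E17.5, and the steepest daily step was a fall by 0.88 (SE 0.64). It read 4.34, 4.32 and 4.02 in young adult, below every embryonic array. In old adult it read 4.37 in the male, 7.93 in the mixed and 4.58 in the female array. The second probe set, 1434502_x_at, followed the same course from 8.33 at E10.5 to 3.69 in young adult. The third, 1431743_a_at, stayed between stage means of 2.78 and 3.16 throughout.

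Alas2, the enzyme that starts heme synthesis in red cells, had a mean above 5 in all 12 stages, and its stage means ranged over 1.61. It read 5.19, 5.95 and 5.91 on the E10.5 arrays and 5.53, 5.72 and 5.06 on those of E19.5, and its embryonic stage means lay between 5.15 and 5.79. It read 6.62, 6.87 and 5.52 in young adult and 6.04, 8.01 and 6.21 in old adult. The male and mixed young adult arrays and the mixed old adult array lay above every embryonic array, the highest of which read 6.31, and the other 3 adult arrays did not.

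Hbb-b2, the minor beta chain of adult hemoglobin, had 2 probe sets, both higher in young adult than at E10.5. Their means moved in opposite directions from young to old adult. The less bright one, 1427866_x_at, read 2.77, 2.49 and 2.42 at E10.5, had a mean of 4.15 at E15.5 and 4.29 at E19.5, and read 6.66, 6.35 and 5.07 in young adult. Its young adult arrays lay above every embryonic array. In old adult it read 6.75, 8.93 and 5.94. The leading one, 1427865_at, rose from 4.75, 4.94 and 5.32 at E10.5 to a mean of 6.14 at E13.5, and then stayed near that level, with 6.91, 6.56 and 6.54 in young adult. It read 5.60, 6.19 and 6.07 in old adult, below all 3 young adult arrays. Beta-like globins resemble one another in sequence, and the suffix x says that some probes of a probe set can match other transcripts. These values are therefore not certain to come from Hbb-b2 alone. The same limit holds for the x probe sets of Hbb-y and Hbb-bh1.

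Hba-a1 and Hba-a2, a pair of near-identical genes for the adult alpha chain, had low values on the 1 probe set annotated to each. The probe set of Hba-a1 had stage means from 2.58 to 3.23, and that of Hba-a2 from 2.62 to 3.38. The highest stage mean was that of young adult for both. No array reached 4 for either gene, and the embryonic arrays of these rows gave no rise while Hba-x fell. Probe sets that match both genes may carry no single gene ID, and which genes the unnamed probe sets measure was not tested.

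**Figure D3:**
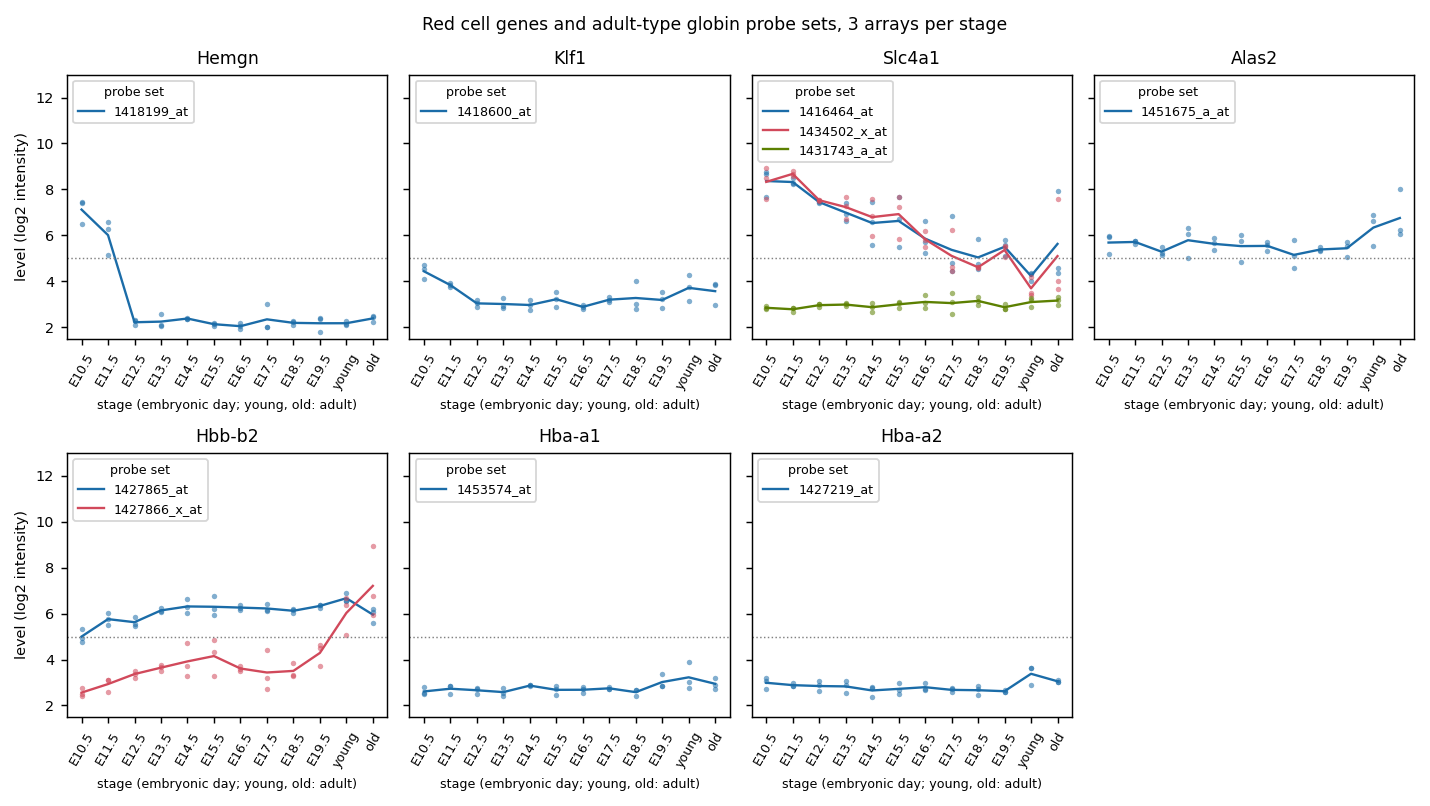
Level (log2 intensity) of each probe set of the red cell genes and the globins of the adult type by stage, with points for the 3 arrays and a line through the stage means; the dotted line is the expression limit of 5. Hemgn drops from 6.01 at E11.5 to 2.21 at E12.5, Slc4a1 has a stage mean of 8.36 at E10.5 and 5.50 at E19.5, and in old adult 1 array stands above the other 2 for Slc4a1, Alas2 and the 1427866_x_at probe set of Hbb-b2.

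The stage comparisons asked how far the hearts of each age differed from the mature one. In the fit over all probe sets, the calls of the study's methods were used: adjusted p under 1e-05, a log2 difference beyond 2 in either direction (4-fold), and expression above the limit in 1 stage or more. A gene was called when any of its probe sets was. Since the members were chosen with this pattern known, their calls are descriptions. At E10.5 against young adult, 5 of the 10 members were called higher (Hba-x, Hbb-bh1, Hbb-y, Hemgn and Slc4a1), beside 6.91% of all genes. Hbb-b2 was called lower, through 1427866_x_at, beside 3% of all genes. The log2 difference was 10.51 (SE 0.37) for the leading probe set of Hbb-y, 9.65 (SE 0.30) for Hbb-bh1 and 7.27 (SE 0.31) for Hba-x. It was 4.95 (SE 0.27) for Hemgn and 4.13 (SE 0.64) for Slc4a1, and -3.47 (SE 0.50) for Hbb-b2. In each of these the lower stage lay below the limit of 5, where a level is hard to tell from background, so that no linear fold is given.

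At E14.5 against young adult, the 3 embryonic globins were called higher, beside 4.08% of all genes, and no member lower, beside 2.47%. Hbb-y was higher by 9.71 (SE 0.37) on its leading probe set and by 5.81 (SE 0.40) on 1450621_a_at, for which the E10.5 difference was 8.68, while Hbb-bh1 was higher by 3.00 (SE 0.30) and Hba-x by 2.89 (SE 0.31). At E19.5 against young adult no member was called in either direction, beside 1.28% of all genes higher and 1.03% lower. The difference was 1.27 for Slc4a1 and -1.74 for the 1427866_x_at probe set of Hbb-b2. At E10.5 against E19.5, Hbb-y, Hbb-bh1, Hba-x and Hemgn were called higher, beside 2.57% of all genes, and none lower, beside 1.1%. Hbb-y differed by 10.13, Hbb-bh1 by 9.70, Hba-x by 7.17 and Slc4a1 by 2.86, the last without a call.

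Leaving out the old adult mixed array, which had the high Slc4a1 value, changed the spread shared by all stages and with it 2 calls. Slc4a1 was then also called higher at E14.5 against young adult and at E10.5 against E19.5, which made 4 and 5 members. Both calls came through 1434502_x_at (3.10 and 2.97), and the leading probe set 1416464_at stayed without a call in both. The title prefix was also added as a further term, estimated from the E16.5 arrays alone, as the female array against the male and mixed ones. It cannot be told apart from sex there and does not measure the form of the prefix in the adults. With this term, Slc4a1 (3.95, SE 1.18) and Hbb-b2 (-3.29, SE 0.91) lost their calls at E10.5 against young adult. Hbb-y, Hbb-bh1, Hba-x and Hemgn kept theirs, with differences of 11.54, 9.51, 8.03 and 4.96. At E14.5 against young adult Hbb-bh1 lost its call with that term, on 1437990_x_at (2.86, SE 0.55) and on 1437810_a_at (2.73, SE 0.53).

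Old adult against young adult, the comparison of age in the mature heart, called no member, beside 0.00483% of all genes higher and 0.00483% lower. The differences that stood out rested on 1 array. For Slc4a1 the old adult mean exceeded that of young adult by 1.40 on both expressed probe sets with all arrays, and by 0.24 and 0.16 without the old adult mixed array. For Alas2 the difference was 0.42 with that array and -0.21 without it. For Hbb-b2 it was 1.18 and 0.32 on 1427866_x_at, and -0.71 and -0.83 on 1427865_at, so that the probe sets of this gene kept opposite signs in both cases.

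The old adult mixed array stood above the other 2 old adult arrays in several red cell genes. Slc4a1 was higher there than their mean by 3.46 and 3.73 on its expressed probe sets, and these were the sixth and the fifth highest of all 45101 differences. The 1427866_x_at probe set of Hbb-b2 was higher by 2.58 and Alas2 by 1.88. The leading probe set of Hbb-b2, 1427865_at, was higher by 0.36 only. Ahsp, the chaperone of free alpha-globin, read 9.87 there against 5.12 and 5.40. Fech, which inserts iron to form heme, read 10.25 against 8.67 and 9.06. Not every red cell gene was higher: Sptb of the membrane skeleton differed by -0.53 and the heme enzymes Uros and Alad by -0.32 and -0.31. By list, 7 of 13 heme genes, 10 of 17 membrane and skeleton genes, 5 of 10 chaperone and enzyme genes and 1 of 6 iron genes were above both other arrays, as were 7 of 10 transcription factors, 2 of 4 switching factors, 1 of 6 signalling genes and 2 of 3 late maturation genes. The probe sets of the embryonic globins, all below the limit of 5 on the old adult arrays, differed by -0.23 to 0.43. Of the other members below the limit there, Hemgn differed by 0.15, Klf1 by 0.46, Hba-a1 by -0.07 and Hba-a2 by -0.03. Of the 17 member probe sets, 10 (58.8%) were higher on that array than on both others, beside 35.0% of all probe sets.

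Other cell type markers moved on the same array. All 6 neutrophil markers were above both other old adult arrays, by a median of 0.52, with S100a8 at 6.81 against 3.42 and 5.23 and S100a9 at 6.95 against 4.03 and 5.68, and the mean of the list over the old adult arrays ran from 3.74 to 4.91. All 4 endothelial markers were above both others as well, by a median of 0.78, whereas none of the 7 macrophage markers (median -0.69) and none of the 6 heart muscle markers (median -0.53) was. Of the lymphocyte markers 3 of 5 were above, of the platelet markers 3 of 8 and of the hepatocyte markers 0 of 6. The hybridization controls averaged 11.56 there and 11.16 and 11.38 on the other 2. The part of blood content, of the other cell types and of the added controls in the red cell values of this array was not tested.

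**Figure D4:**
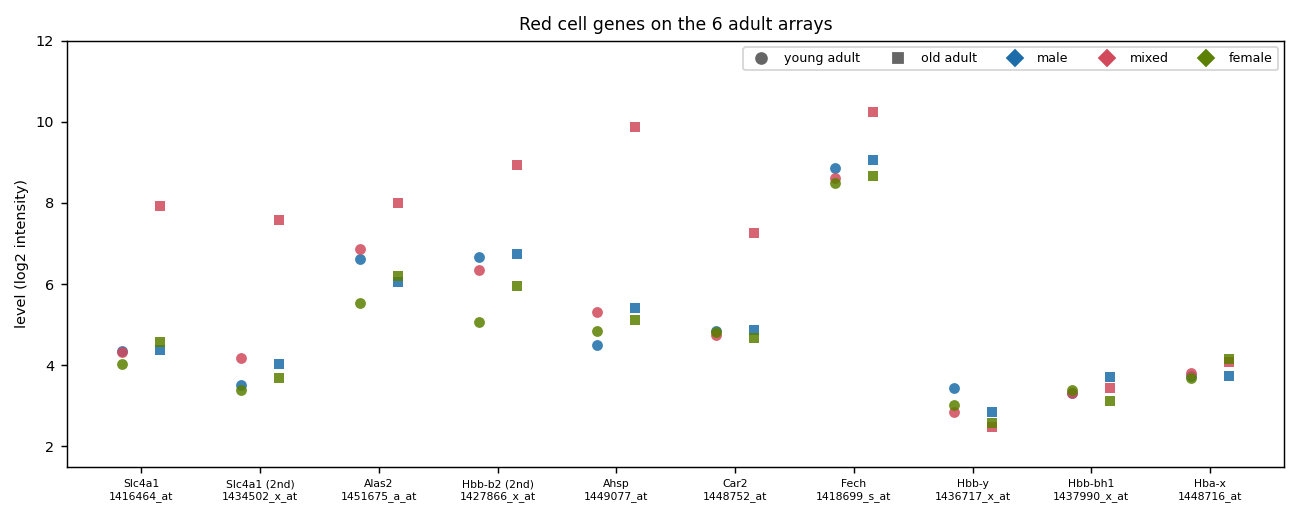
Level (log2 intensity) of 10 probe sets on the 3 young adult (circles) and 3 old adult (squares) arrays, coloured by sex label. Slc4a1, Alas2, 1427866_x_at of Hbb-b2, Ahsp, Car2 and Fech stand higher on the old adult mixed array than on the other 2 old adult arrays, and Hbb-y, Hbb-bh1 and Hba-x, all below 5, do not.

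Within stages Alas2, Slc4a1 and 1427866_x_at of Hbb-b2 varied together across arrays. The leading probe set of Hbb-b2 was not correlated here. The deviations of each array from its stage mean were correlated over the 36 arrays, which share 24 residual degrees of freedom, the normalization and the blood held in each sample. Pearson's r was 0.83 for Alas2 with Slc4a1, 0.78 for Alas2 with 1427866_x_at of Hbb-b2 and 0.75 for Slc4a1 with the latter. Without the old adult mixed array these values were 0.73, 0.65 and 0.57. Among the embryonic globins r was 0.67 for Hba-x with Hbb-bh1, but 0.27 without the E13.5 mixed array. It was 0.43 for Hba-x with Hbb-y. Slc4a1 with Hbb-y gave 0.44, which was 0.64 without the old adult mixed array and 0.26 without the E17.5 mixed array. Alas2 with Hba-x gave 0.60, which was 0.71 without the old adult mixed array and 0.52 without the E13.5 mixed array. Alas2 with Hbb-bh1 gave 0.50, and 0.61 and 0.37 without these arrays in turn. Without the old adult mixed array, Alas2 thus followed these embryonic globins about as closely as Slc4a1 or 1427866_x_at. The mean of the hybridization controls deviated along with Slc4a1 (0.59), Klf1 (0.49) and Hbb-y (0.44), and its part in these correlations was not tested. The arrays left out here were chosen after their values were seen.

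Single arrays carried most of the extremes. Over the 13 expressed member probe sets the highest deviation fell on the E13.5 male array for 5, on the old adult mixed array for 4, on the E17.5 mixed array for 3 and on the E15.5 male array for 1. The lowest fell on the E13.5 mixed array for 5. Deviations are taken from the mean of the stage, so a low array makes the others of its stage high. The counts for the E13.5 arrays are therefore not independent, nor are probe sets of the same gene. On the E17.5 mixed array the highest deviations were those of 2 probe sets of Hbb-y and that of Hemgn, genes with stage means below 5 there. Slc4a1 was also high there, at 6.83 against 4.46 and 4.81.

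**Figure D5:**
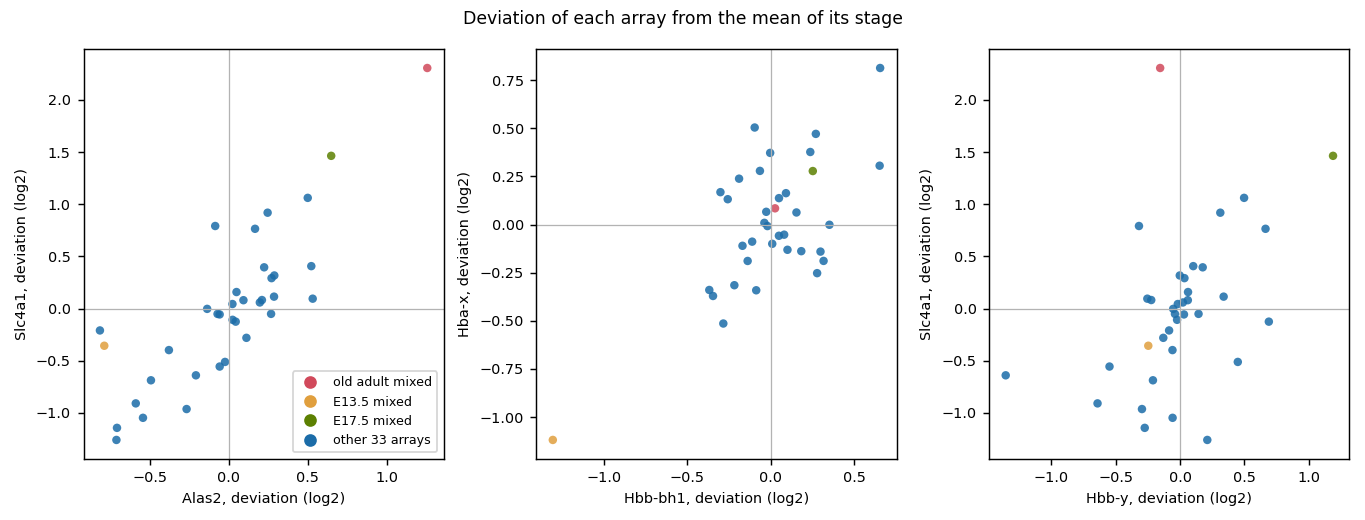
Deviation of each array from its stage mean (log2) for the leading probe sets of 3 pairs of genes, each point an array, with the old adult mixed, E13.5 mixed and E17.5 mixed arrays coloured. Slc4a1 and Alas2 deviate in the same direction on most arrays (r = 0.83), and the E13.5 mixed array lies apart at low values of Hbb-bh1 and Hba-x.

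The sexes were set against each other over 9 male and female pairs, E13.5 to old adult, with the stage as a block. This contrast had no part in choosing the members. None of the 171 probe sets of members and related red cell genes reached an adjusted p under 0.05 in limma, beside 0.0488% of all probe sets. Of the 171, 17 had an unadjusted p under 0.05. The share of all probe sets at that unadjusted limit was not counted, so nothing is read from the 17. Slc4a1 was higher in males by 0.46 (SE 0.11, 95% confidence interval 0.22 to 0.70) on 1416464_at, in 8 of 9 pairs, with an adjusted p of 0.331. Alas2 was higher in males by 0.30 (SE 0.10), in 8 of 9 pairs, with an adjusted p of 0.555. Hbb-y differed by 0.13 on its leading probe set (95% confidence interval -0.10 to 0.35), and Hba-x by 0.07 (-0.19 to 0.32). On 1450621_a_at Hbb-y was higher in males by 0.30 (0.04 to 0.57), in 8 of 9 pairs, with an adjusted p of 0.595. On 1436823_x_at it differed by 0.01. After adjustment over all probe sets, differences of these sizes were not detectable with this number of arrays.

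Related genes were taken from 8 lists of the red cell programme, 74 genes of which 69 are on the array. At E10.5 against young adult 5 of the 69 were called higher and 2 lower, shares near those of all genes (6.91% and 3%). Higher were Bcl11a, a repressor of embryonic globin genes (log2 difference 3.23, SE 0.16), Car2, the carbonic anhydrase of red cells (3.52, SE 0.36), Tfrc, the transferrin receptor that takes up iron (2.25, SE 0.25), Tspan33 (2.36, SE 0.21) and, through a probe set other than its leading one, the heme enzyme Cpox. Lower, also through other probe sets, were Ank1, a membrane skeleton protein that muscle makes as well, and Kitl, the stem cell factor. Ahsp had a difference of 3.37 (SE 0.63) and missed the call with an adjusted p of 3.2e-05 in limma, and it was called once the old adult mixed array was left out. The median log2 difference over the leading probe sets was 0.29 for the heme genes, 0.45 for membrane and skeleton, 0.28 for the chaperone and enzymes, 0.09 for the transcription factors, 0.44 for the switching factors and -0.69 for iron uptake and export. It was 0.01 for erythropoietin and stem cell factor signalling and 0.95 for the 3 genes of late maturation. Over all probe sets it was -0.19.

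Bcl11a did not follow the embryonic globins. Its stage mean rose from 5.82 at E10.5 to 6.92 at E12.5, was still 5.38 at E19.5, and was 2.59 in young adult and 3.35 in old adult. It was called higher than young adult at E14.5 (3.88, SE 0.16) and at E19.5 (2.79, SE 0.16), and it was the only related gene called higher in either comparison, beside 4.08% and 1.28% of all genes. Lower were Fth1, the ferritin heavy chain (-2.70, SE 0.25), Kitl (-2.93, SE 0.30) and Ank1 at E14.5, beside 2.47% of all genes. At E19.5 Ank1 was lower, beside 1.03% of all genes. At E10.5 against E19.5 only Cpox was called higher, and none lower, beside 2.57% and 1.1% of all genes. In limma 40 related genes were higher and 23 lower there at an unadjusted p under 0.05. In old adult against young adult none of the 69 was called, with 15 genes higher and 10 lower at an unadjusted p under 0.05. In these unadjusted counts a gene counted when any of its probe sets passed, so that it could count in both directions. The share of all genes at that limit was not counted, and nothing is read from these counts.

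Markers of other blood and tissue cells took another course over the same stages. Of the 7 macrophage markers 6 were called lower at E10.5 than in young adult, beside 3% of all genes. The mean of the list was 3.53 to 3.78 on the E10.5 arrays and 7.24 to 7.35 on the young adult arrays. Neutrophil markers averaged 2.89 to 2.99 at E10.5, and lymphocyte markers 3.33 to 3.45, with none of either list above 5. Among platelet markers, Ppbp was called lower at E10.5, beside the same 3% of all genes. Their part in the member values was not tested.

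The genes whose stage means ran most like those of Hbb-y, over 12 stages and among 4669 probe sets that were expressed, had 1 gene ID, varied by more than 2 and were no members, were Tenm3, Ntm and Kcnq1ot1 (each r = 0.98), Wnt5a and Phgdh (each r = 0.97). None was in the lists of related red cell genes. For Hba-a2, the leading adult alpha-globin row, they were Rbp4 (r = 0.92), Serpinf1, 2810416G20Rik, Cd302 and Fbln1 (0.90), a likeness to stage means that never passed 3.38. For Alas2 they were 4930506M07Rik (r = 0.94), Ddrgk1, Htatip2, Asb13 and Abcc4 (0.93). The non-member genes whose deviations within stages ran most like those of Slc4a1, over 36 arrays and among 5457 probe sets, were Fech (r = 0.83), Epb4.1 of the membrane skeleton (0.83), Fam46c (0.76), Ahsp (0.76) and Gm7609 (0.75), of which 3 were in the lists of related genes.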

How the data were processed

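Affymetrix Mouse Genome arrays of 36 heart samples were analysed, and the microRNA arrays of the study were not used here. The authors made the deposited log2 values by robust multi-array average (RMA: background correction, quantile normalization, summary per probe set), and the labels name Affymetrix Expression Console and Partek 6.6. Quantile normalization gives every array the same distribution, so a level is relative to the other probe sets. The values were used as deposited, and every per-sample column was used (0 were left out). The extraction protocol of the labels names liver, where the methods name heart. The members and lists were chosen with earlier results of these data known.

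Stage comparisons used R 4.3.3 and limma 3.58.1, with 1 mean for each of 12 stages over all 45101 probe sets, variances moderated with 6.96 prior and 24 residual degrees of freedom, and p-values adjusted by Benjamini-Hochberg in each comparison. The fit was tested on simulated data. Genes were counted by Entrez ID, and 6937 probe sets have none. Male and female were compared in limma over 9 pairs, without E12.5 as in the methods. Confidence intervals are at 95%. Array number limits the precision. Where nothing in the labels ties arrays to separate litters, p-values measure the spread between these samples.

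Named were all members, related genes called in a comparison (at most 6 in each direction per list), and the 5 genes most like Hbb-y, the leading adult alpha-globin and Alas2 in stage means, or like Slc4a1 in deviations (SD above 0.3). Levels, timing and correlations used Python 3.11.15, pandas 2.3.3, NumPy 2.4.6 and matplotlib 3.10.9. Alternatives were quantile normalization repeated, centring, the filter and its order, other thresholds, the leading probe set alone, the title prefix, the replicate block and leaving out each array.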

Additional observations from a re-analysis of the deposited data

How the results depend on the processing

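The counts of related genes called changed with several settings, and the cause was not tested. At E10.5 against young adult 5 genes were higher, but 2 after centring, 12 with a log2 limit of 1 and 2 with the title prefix as a term. The 2 lower became 1 with the title prefix and 0 with the leading probe set alone. At E14.5 the 1 higher became 2 with the filter applied before the fit, 3 at an adjusted p under 0.05 and 4 with a log2 limit of 1, and the 3 lower became 5 with a log2 limit of 1 and 1 with the title prefix. At E19.5 the 1 lower became 2 after centring and with a log2 limit of 1, and 0 with the leading probe set alone. At E10.5 against E19.5 the 1 higher became 0 after quantile normalization, after centring, with the title prefix and with the leading probe set alone, 2 with the filter first and at an adjusted p under 0.05, 3 without the filter and 9 with a log2 limit of 1, while the 0 lower became 1 with a log2 limit of 1. Centring moved arrays by -0.31 to 0.32. With 1 array left out, the counts higher and lower were 5 to 7 and 2 to 2 at E10.5, 1 to 3 and 3 to 3 at E14.5, 1 to 1 and 1 to 2 at E19.5, and 0 to 2 and 0 to 0 for E10.5 against E19.5, and stayed at 0 for old adult and for sex. Of the named members, the reversal was that of Slc4a1 at E10.5 against young adult on 1431743_a_at (-0.25), a probe set below 5 in all stages. Arrays of different stages that shared a number or sex label had a median r of deviations of 0.04 over 138 pairs, from -0.58 to 0.60. The pairs that did not share one had a median of -0.02 over 276 pairs, from -0.64 to 0.67. With the replicate block the counts were 5 and 2 at E10.5, 1 and 3 at E14.5, 1 and 1 at E19.5, 1 and 0 against E19.5 and 0 for old adult. Over all settings 1181 values moved little or not at all, 38 counts and 17 values of members moved, and 1 value was reversed. A member value that moved little could still lose its call. With 3 arrays a stage, and Hbb-y at the top of the measured range until E13.5, smaller changes of that gene in those stages cannot be read.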

Other observations

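Of the 737 probe sets without a gene ID that were expressed and varied within stages, 1452757_s_at followed Alas2 most closely in its deviations within stages (r = 0.79 over 36 arrays), with stage means from 11.90 at E17.5 to 13.24 in old adult. 1417184_s_at came next (r = 0.78), with a stage mean of 7.70 at E10.5, 12.32 in young adult and 13.08 in old adult. Both were chosen after their values were seen, and the annotation used here names no gene for them.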
